A study of Homo sapiens with 6 samples.

Results

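The mitochondrial ribosomal protein genes are the nuclear genes that encode the protein shell of the ribosome inside mitochondria. They were taken by symbol from the gene table, as MRPL or MRPS followed by a number and at most a letter A to C. This gave 78 of 62700 genes, 49 with MRPL symbols (large subunit) and 29 with MRPS symbols (small subunit). All 78 held enough reads to be tested.

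The libraries came from PC3, an established human prostate cancer cell line, and were made from total RNA after depletion of ribosomal RNA. The 3 TTC3 shRNA libraries (labelled TTC3 knockdown) carried a short hairpin RNA against TTC3, a gene for an E3 ubiquitin ligase. The 3 control shRNA libraries (labelled WT for genotype) carried a control hairpin. No hairpin sequence, clone, time after transduction or selection is given in the labels, and the libraries of a group are not said to be separate cultures. The p-values therefore measure only how far these libraries vary, a spread that may be technical.

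Mitochondria keep a small genome that encodes core subunits of the respiratory chain and ATP synthase, the mitochondrial rRNAs and tRNAs, but no ribosomal protein in human cells. Every protein of the mitochondrial ribosome is made in the cytosol and imported, and the particle holds bacterial-type proteins beside proteins that exist only in mitochondria. The large subunit forms peptide bonds and delivers the chain through an exit tunnel to the inner membrane, and the small subunit binds the mRNA and reads its codons.

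Promoter windows of 69 of the 78 genes were found in the RefSeq table (GRCh38.p14), each with 250 bases before and 50 after the annotated start. The letters of binding motifs known from genes of mitochondrial proteins were searched on both strands. Shown are 100 bases before the start, 5′ to 3′ on the gene's strand, of 4 genes that were higher in TTC3 shRNA libraries (MRPL20, MRPL3, MRPL58 and MRPL11) and 2 that did not pass the test (MRPS18A and MRPS31). Capitals mark the ETS motif CCGGAAG and the Sp1 motif GGGCGG or their reverse complements. No window shown holds another motif that was searched, and GENCODE 29 exons of other genes cover none of them. In MRPL20 and MRPL3 the bases nearest the start are exonic in that annotation.
MRPL20, chr1:1407294-1407393, minus strand: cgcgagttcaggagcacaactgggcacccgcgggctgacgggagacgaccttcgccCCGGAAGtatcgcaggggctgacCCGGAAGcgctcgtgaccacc
MRPL3, chr3:131502972-131503071, minus strand: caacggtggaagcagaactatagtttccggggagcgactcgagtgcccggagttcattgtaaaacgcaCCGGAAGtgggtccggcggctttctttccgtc
MRPL58, chr17:75012570-75012669, plus strand: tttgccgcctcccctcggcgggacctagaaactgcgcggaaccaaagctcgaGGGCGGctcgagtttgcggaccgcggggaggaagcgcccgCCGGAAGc
MRPL11, chr11:66438849-66438948, minus strand: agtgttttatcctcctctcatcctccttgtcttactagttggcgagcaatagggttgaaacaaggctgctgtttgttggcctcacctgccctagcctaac
MRPS18A, chr6:43687792-43687891, minus strand: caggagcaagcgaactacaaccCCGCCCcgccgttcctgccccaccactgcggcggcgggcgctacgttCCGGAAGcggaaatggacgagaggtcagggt
MRPS31, chr13:40771191-40771290, minus strand: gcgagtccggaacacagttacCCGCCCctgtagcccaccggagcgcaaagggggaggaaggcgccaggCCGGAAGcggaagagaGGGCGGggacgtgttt

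The ETS letters occurred in 29 of the 69 member windows (42.0%), against 10.7% of all 27305 windows and 21.0% of the 8924 windows of protein-coding genes with a mean of at least 5 CPM (counts per 1e6 counts of the TMM-scaled library). The YY1 motif AAGATGGC occurred in 20 member windows (28.99%), against 3.03% of all windows and 5.94% of those of the expressed protein-coding genes. Of its 21 matches, 15 lay after the start, in transcribed sequence that is not printed here. Together 41 member windows (59.4%) held ETS or YY1 letters, against 13.1% of all windows. For this pair the share among expressed protein-coding genes, higher than among all windows for each motif alone, was not counted.

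The other motifs were nearer to their background. The NRF1 motif occurred in 8 member windows (11.6%), against 6.29% of all windows and 12.8% of those of the expressed protein-coding genes. The E-box CACGTG occurred in 6 member windows (8.70%), above the 7.44% of all windows and below the 10.3% of those of the expressed protein-coding genes. CCAAT occurred in 20 (28.99%), against 35.7% and 37.6%. Sp1 letters occurred in 42 (60.9%), above the 44.6% of all windows and below the 72.3% of those of the expressed protein-coding genes.

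Letters of the same motif stood in front of members that rose and members that did not pass, as the windows above show. ETS letters were in 13 of 37 windows of members called higher and in 16 of 32 windows of the other members. YY1 letters were in 13 of the 37 and 7 of the 32. Motif matches describe letters, not binding, and these shares were not tested.

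The knockdown itself was visible in every library. TTC3 was at 228, 183 and 178 CPM in TTC3 shRNA libraries, against 695, 684 and 680.3 CPM in control shRNA libraries. The groups did not overlap, and the log2 fold change of TTC3 was −1.81 ± 0.10 (SE, edgeR quasi-likelihood test, adjusted p = 5.65e-05). Libraries held 143246356 to 155526861 estimated counts. The PC3 label was checked by markers. All 4 epithelial or mesenchymal markers of PC3 were detected: VIM averaged 1634.3 CPM in TTC3 shRNA and 1237.5 CPM in control shRNA libraries, KRT18 236 and 163 CPM, KRT8 166 and 165 CPM, and EPCAM, the lowest, 5.50 and 4.42 CPM. KLK3 and KLK2, prostate genes that PC3 lacks or holds low, were at 0 counts in every library. Of 6 markers of other cell types, CD3E was at 0, PTPRC, DCN and VWF averaged at most 0.179 CPM in either group, PECAM1 3.00 and 4.99 CPM, and COL1A1 75.9 and 19.0 CPM (edgeR, adjusted p = 0.00240). The part of these differences in the results was not tested. TTC3 shRNA replicate 1 stood apart from replicates 2 and 3: over genes, the median ratio of its count differences to sampling noise was 165 and 234 against the other TTC3 shRNA libraries, 15.6 between those, and 4.54 to 7.94 among controls.

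Large subunit genes were mostly higher in TTC3 shRNA libraries. Of the 49 MRPL genes, 31 were higher, 0 were lower and 18 did not pass an adjusted p of 0.05 in the edgeR test over all 24325 tested genes. Of all tested genes 33.6% were called, 15.7% higher and 17.8% lower, and of 10797 protein-coding genes with a mean of at least 5 CPM, the class all members belong to, 25.5% and 17.9%. Among MRPL genes the share called higher was 63.3%. The median log2 fold change of MRPL genes was 0.43, against −0.02 over all tested genes. No test was made over the list, since it was proposed with results of these data known.

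Small subunit genes were called higher less often. Of the 29 MRPS genes, 12 were higher (41.4%), 1 was lower and 16 did not pass. Their median log2 fold change was 0.32, and 23 had a positive value, against 46 of 49 MRPL genes. The 2 genes with the highest log2 fold changes, MRPS28 and MRPS24, stood at 0.87 and 0.83, and the lowest, MRPS36, at −0.41, so MRPS genes reached farther below 0 than MRPL genes, whose lowest was MRPL17 at −0.09.

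The same picture came from the libraries themselves. All 3 TTC3 shRNA libraries lay above all 3 controls for 36 MRPL genes and 18 MRPS genes, against 23.3% of all tested genes and 34.1% of the expressed protein-coding genes. They lay below all controls for 0 MRPL genes and 3 MRPS genes (MRPS11, MRPS36 and MRPS18C), against 27% and 25.6%. The groups overlapped for 13 MRPL and 8 MRPS genes.

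**Figure D1:**
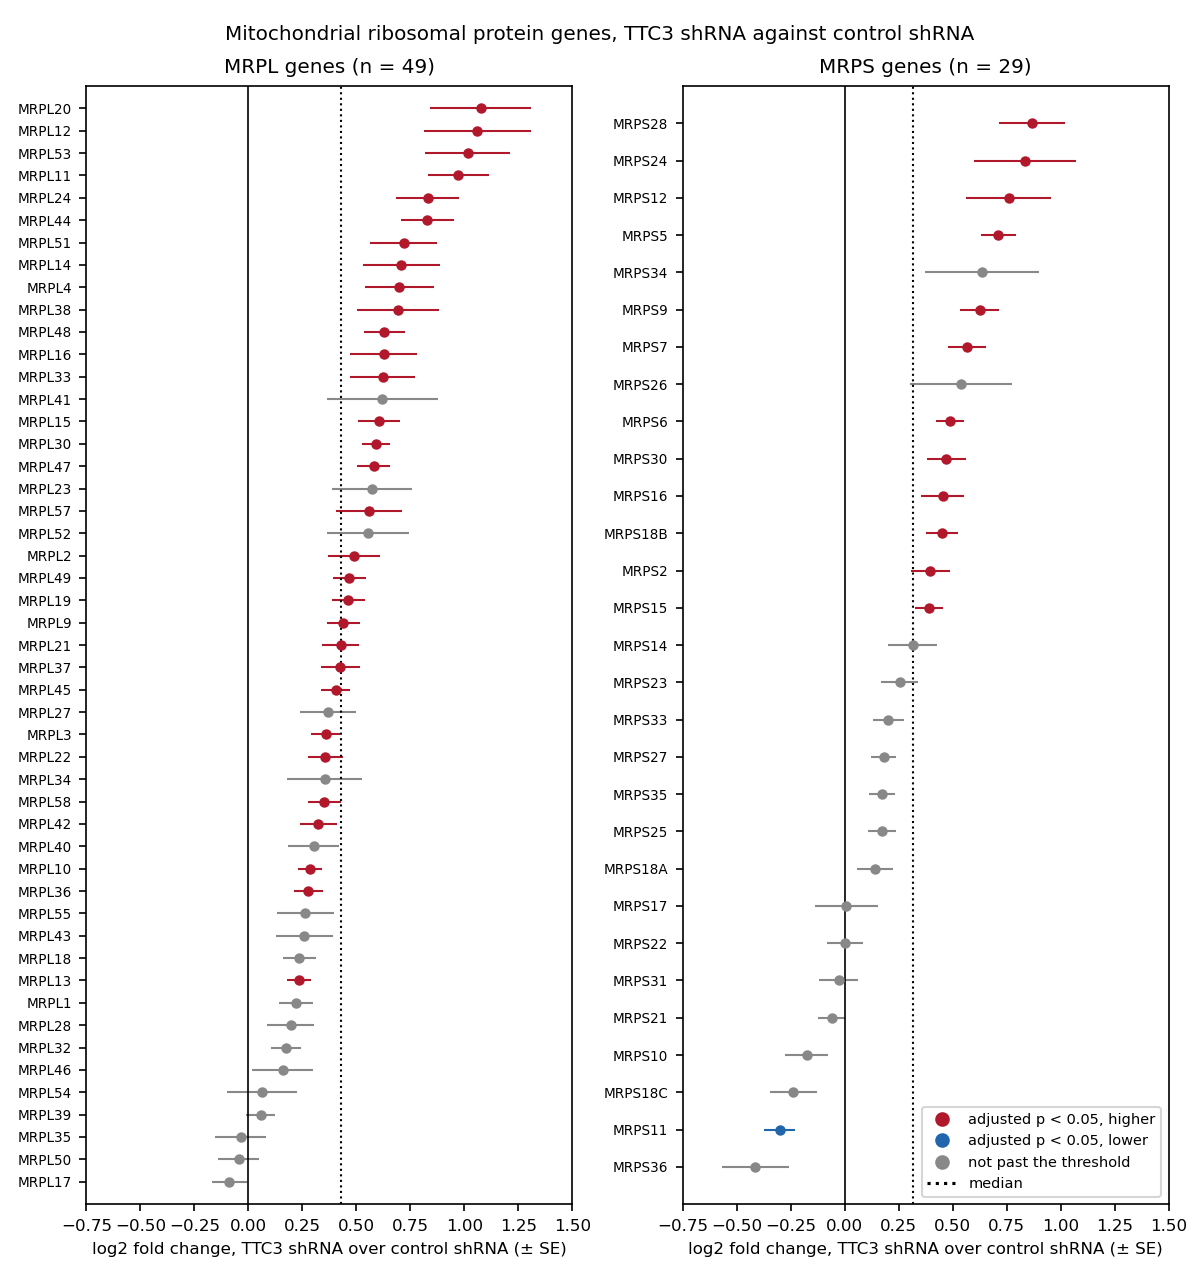
Log2 fold change of each member in TTC3 shRNA over control shRNA libraries (x axis, point ± SE), MRPL genes left and MRPS genes right, ordered by fold change, with the median as a dotted line. Red points are the 31 MRPL and 12 MRPS genes called higher, the blue point is MRPS11, and grey points did not pass an adjusted p of 0.05.

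Summed over the genes, the MRPL group was at 2192, 2664 and 2809 CPM in TTC3 shRNA libraries, against 1818, 1825 and 1818 CPM in control shRNA libraries. The MRPS group was at 1565, 1766 and 1887 CPM in TTC3 shRNA libraries, against 1354, 1355 and 1347 CPM in control shRNA libraries. Both sums were higher in every TTC3 shRNA library than in any control, with replicate 1 nearest to the controls. MRPS genes held 41.7, 39.9 and 40.2% of the summed CPM of all members in TTC3 shRNA libraries, against 42.7, 42.6 and 42.6% in control shRNA libraries. Without MRPS16, which gave the most reads of all members, the share was 36.0, 34.2 and 34.2% in TTC3 shRNA libraries and 37.1% in each control library. In bulk RNA a change in the number of cells of a state and a change in RNA per cell cannot be told apart.

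The gap between subunits was small. The MRPS median was lower than the MRPL median by 0.11 on the log2 scale, with an SD of 0.05 for this difference over the 3 TTC3 shRNA libraries. Structures of the human mitochondrial ribosome place MRPS30 (mL65) and MRPS18A (mL66) in the large subunit, and MRPS36 was later found to belong to a metabolic enzyme complex. Grouped by structure, 32 of 51 large subunit genes were higher and 0 lower, 11 of 26 small subunit genes were higher and 1 lower, and the medians differed by −0.07. With trends of transcript length and GC content removed from every library, the difference in medians was −0.00377.

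**Figure D2:**
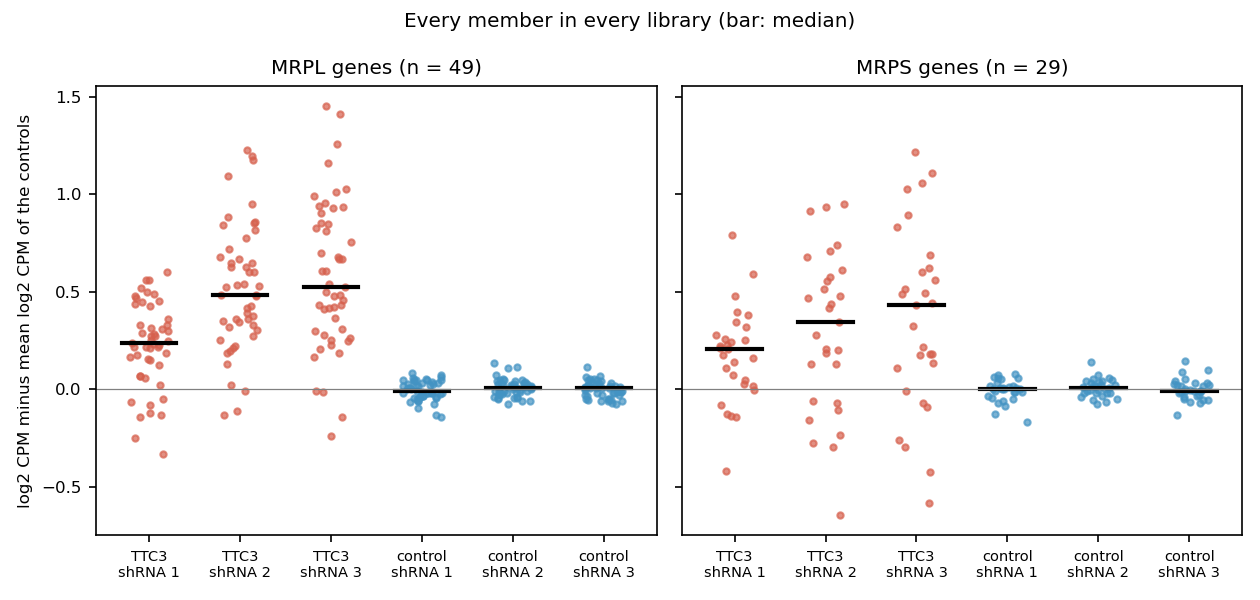
Each point is 1 member in 1 library: log2 CPM minus the mean log2 CPM of the 3 controls (y axis), for TTC3 shRNA libraries 1 to 3 (red) and control shRNA libraries 1 to 3 (blue), with bars at the medians. The medians in TTC3 shRNA libraries were 0.24, 0.48 and 0.53 for MRPL genes and 0.21, 0.35 and 0.43 for MRPS genes. Members spread more widely there than in controls, whose values are centred on their own mean by construction.

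Much of the size of the response came from TTC3 shRNA replicates 2 and 3. Replicate 1 had the lowest change of the 3 for 55 of 78 members and the highest for 18. Across members, the changes in replicates 2 and 3 had a Spearman rho of 0.97, and those of replicate 1 had 0.44 and 0.42 with them; the points share the control mean and these values are descriptions. Without replicate 1, 45 MRPL genes were called higher and 1 lower, and 21 MRPS genes higher and 3 lower, while over all genes 6674 were called higher and 7065 lower. Of the members that did not pass with all libraries, 14 of 18 MRPL genes were then higher and 1 lower, and 9 of 16 MRPS genes higher and 2 lower. Without replicate 2, 20 MRPL genes were called higher, and 2200 over all genes. Without a control library the MRPL count was 15, 15 and 13 (replicates 1, 2 and 3 left out) and the MRPS count 8 each time. Over all genes the number called higher was then 1835, 1869 and 1876, against 3827 with all libraries. In all 6 fits with 1 library left out, 13 of the 31 MRPL and 8 of the 12 MRPS genes were called higher.

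Length and base composition moved with the same libraries. Over 10475 protein-coding genes, the slope of log2 CPM relative to controls against log2 transcript length was −0.02, −0.16 and −0.21 in TTC3 shRNA libraries 1 to 3. Against GC content it was −0.02, 0.28 and 0.31 per 10 percentage points. The members' longest transcripts had a median of 1722 bases, against 3932 in protein-coding genes outside the lists used here. Their median GC content was 47.7%, against 47.8%, with 50.7% in MRPL and 46.9% in MRPS genes. With the length trend removed, 21 MRPL genes were higher and 2 lower (MRPL17 and MRPL54), and 11 MRPS genes were higher and 1 lower. With the length and GC trends removed, 24 MRPL genes were higher and 3 lower, and 15 MRPS genes higher and 4 lower. How many of all genes were called in these fits is not given here, so these counts have no background. The part of length and composition in single changes was not tested beyond these fits.

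Within the large subunit, genes of the stalk, exit tunnel and central protuberance were picked after values were seen, so their counts are descriptions. Of all MRPL genes 63.3% were higher, with a median log2 fold change of 0.43. The stalk recruits translation factors to the ribosome, and 4 of its 5 genes were higher (MRPL10, MRPL11, MRPL12 and MRPL53), with a median log2 fold change of 0.97. MRPL12, its flexible multicopy protein, was at 113, 210.01 and 239 CPM in TTC3 shRNA libraries, against 87.5, 90.7 and 90.9 CPM in control shRNA libraries. The groups did not overlap, but replicate 1 was close to the controls, and the log2 fold change was 1.06 ± 0.25 (SE, edgeR, adjusted p = 0.0173). Its call was lost without TTC3 shRNA replicate 2 and without each control, with an adjusted p of up to 0.0687.

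MRPL11, a protein of the stalk base, was at 62.9, 88.4 and 92.5 CPM in TTC3 shRNA libraries, against 42.8, 40.6 and 40.9 CPM in control shRNA libraries. All TTC3 shRNA libraries were well above the controls, with a log2 fold change of 0.97 ± 0.14 (edgeR, adjusted p = 0.00275) and an adjusted p of at most 0.0196 with any library left out. MRPL11 lies at chr11:66435075-66466738 on the minus strand, and an exon of PELI3, on the other strand, overlaps it.

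MRPL53, a stalk protein found only in mitochondria, was at 14.1, 23.3 and 24.3 CPM in TTC3 shRNA libraries, against 10.4, 9.83 and 10.3 CPM in control shRNA libraries. The groups did not overlap, and its log2 fold change was 1.02 ± 0.20 (edgeR, adjusted p = 0.00826). MRPL53 shares exon sequence with CCDC142 on the same strand, which rose by 0.46 (edgeR, adjusted p = 0.0201). MRPL10, the anchor that holds MRPL12, rose by 0.29 ± 0.06 (edgeR, adjusted p = 0.00832), a call that was lost without control replicate 1 (adjusted p = 0.0593), without control replicate 3, and with the length trend removed (0.10, adjusted p = 0.30). MRPL54, the remaining stalk gene, was at 0.06 ± 0.16 with overlapping groups.

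The largest log2 fold change of any member belonged to MRPL20, whose bacterial counterpart is needed early in assembly of the large subunit. MRPL20 (chr1:1401908-1407313, minus strand) was at 29.5, 49.5 and 60.0 CPM in TTC3 shRNA libraries, against 22.3, 20.9 and 22.7 CPM in control shRNA libraries. The groups did not overlap, with replicate 1 the lowest of the TTC3 shRNA libraries, and the log2 fold change was 1.08 ± 0.23 (edgeR, adjusted p = 0.0128). Without control replicate 2 the adjusted p was 0.0570, and it also missed 0.05 without each other control. Its antisense neighbour MRPL20-AS1 rose by 0.40 (edgeR, adjusted p = 0.0445). How counting used the strand is not given in the sources used here, so reads of such pairs may be shared.

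Around the exit tunnel, where the new protein leaves towards the membrane, 4 of 6 genes were higher (MRPL22, MRPL24, MRPL45 and MRPL47) and the median log2 fold change was 0.49. MRPL24 led at 0.83 ± 0.15 (edgeR, adjusted p = 0.00592) and kept its call with each library left out, as did MRPL45 and MRPL47. MRPL45 lost its call with the length trend removed, and MRPL22 without each control and with library totals. MRPL23 was at 0.57 ± 0.19 with all TTC3 shRNA libraries above the controls, but did not pass (adjusted p = 0.0514). MRPL17 was at 61.8, 72.9 and 72.6 CPM in TTC3 shRNA libraries, against 71.4, 76.1 and 72.9 CPM in control shRNA libraries, with overlapping groups and a log2 fold change of −0.09 ± 0.08. MRPL17 was called lower when the length trend was taken out (−0.29, adjusted p = 0.00611), and also with library totals in place of TMM scaling (−0.22, adjusted p = 0.049).

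In the central protuberance, the crown of the large subunit that faces the tRNAs, 3 of 6 genes were higher (MRPL38, MRPL48 and MRPL58) and the median was 0.33. MRPL48 kept its call with each library left out, and MRPL38 kept it only without TTC3 shRNA replicate 1. MRPL58, a peptidyl-tRNA hydrolase built into the ribosome, rose by 0.35 ± 0.08 (edgeR, adjusted p = 0.0128). It was at −0.04 with the length trend removed and at −0.08 with the GC trend removed as well, neither past the threshold, and its call was lost without TTC3 shRNA replicate 2 and without control replicates 2 or 3 (adjusted p of up to 0.0690). MRPL18 was the member just outside the threshold, at 0.24 ± 0.08 (adjusted p = 0.0501), and MRPS24 the member just inside it, at 0.83 ± 0.24 (adjusted p = 0.0332). MRPL27, near the site of peptide bond formation and among the most abundant MRPL genes that did not pass, was at 0.37 ± 0.13 (adjusted p = 0.0647). Without TTC3 shRNA replicate 1 both MRPL18 and MRPL27 passed, with adjusted p-values of 0.00326 and 0.000314.

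The other large rises in MRPL genes were MRPL44, a mitochondria-specific protein with a fold related to ribonuclease III (0.83 ± 0.12, adjusted p = 0.00288), MRPL51 (0.72 ± 0.15, adjusted p = 0.0123) and MRPL14 (0.71 ± 0.18, adjusted p = 0.0224), a protein of the face that meets the small subunit. MRPL44 kept its call with each library left out. MRPL14 kept it without TTC3 shRNA replicate 1 and lost it without each of the other 5 libraries, with an adjusted p of up to 0.0819. MRPL51 lost it without control replicates 1 or 3, with an adjusted p of up to 0.0560. An exon of NCAPD2, on the other strand, overlaps MRPL51.

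A few members changed by nearly the same amount in every TTC3 shRNA library. MRPL30 was at 62.6, 67.2 and 70.3 CPM in TTC3 shRNA libraries, against 43.7, 44.7 and 44.6 CPM in control shRNA libraries. Its groups lay far apart, and its log2 fold change of 0.59 ± 0.06 had the smallest adjusted p of all members (edgeR, 0.000832). MRPL13 rose by 0.23 ± 0.05 (edgeR, adjusted p = 0.0162), with changes of 0.24, 0.22 and 0.24 in the 3 libraries, the narrowest range of all members (0.025). The MRPL13 call was lost without TTC3 shRNA replicate 2 and without each control, and also with library totals, with the replicate block and with the length trend removed. At the other end MRPS34 ranged over 1.18, with changes of −0.13, 0.74 and 1.05, and MRPL41 over 1.12, with −0.13, 0.77 and 0.99.

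**Figure D3:**
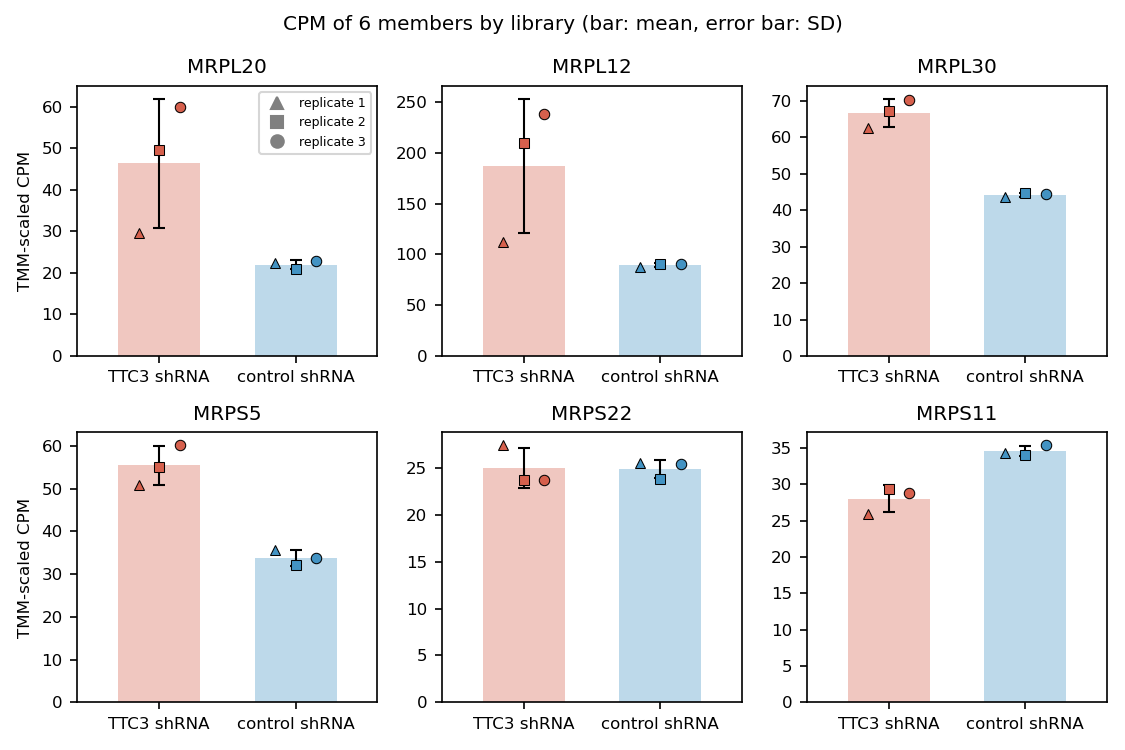
TMM-scaled CPM (y axis, linear, from 0) of 6 members in TTC3 shRNA libraries (red, left) and control shRNA libraries (blue, right); bars are means, error bars SD (n = 3 each), and symbols the replicates. MRPL20 and MRPL12 vary widely among TTC3 shRNA libraries, MRPL30 and MRPS5 do not, MRPS22 overlaps between groups, and MRPS11 lies below the controls.

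In the small subunit, MRPS5 had the smallest adjusted p. MRPS5, a protein at the mRNA entry, was at 51.0, 55.2 and 60.2 CPM in TTC3 shRNA libraries, against 35.7, 32.1 and 33.7 CPM in control shRNA libraries. The groups did not overlap, and the log2 fold change was 0.71 ± 0.08 (edgeR, adjusted p = 0.00106). It kept its call with each library left out, as did MRPS28, MRPS9, MRPS7, MRPS6 and MRPS30. Of these, MRPS9 lost its call with the length trend removed (0.37, adjusted p = 0.0860).

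MRPS28 had the largest log2 fold change of the MRPS genes, 0.87 ± 0.15 (edgeR, adjusted p = 0.00579), with 35.4, 49.0 and 54.7 CPM in TTC3 shRNA libraries, against 26.5, 24.4 and 25.2 CPM in control shRNA libraries. MRPS24, also at the mRNA entry, was at 45.8, 78.2 and 95.1 CPM in TTC3 shRNA libraries, against 41.0, 41.4 and 40.5 CPM in control shRNA libraries. MRPS24 replicate 1 stood only just above the controls, and its call was lost without any library other than TTC3 shRNA replicate 1, with an adjusted p of up to 0.103. MRPS12, of the decoding centre, rose by 0.76 ± 0.19 (edgeR, adjusted p = 0.0235) and lost its call in the same 5 fits, with an adjusted p of up to 0.0834.

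MRPS9 (0.62 ± 0.09), MRPS7 (0.57 ± 0.09), a protein of the head, and MRPS6 (0.49 ± 0.06) rose with adjusted p-values of 0.00275, 0.00370 and 0.00169 (edgeR). MRPS6 shares exon sequence with SLC5A3 on the same strand, whose log2 fold change was −0.35 (adjusted p = 0.0874). MRPS16 rose by 0.45 ± 0.10 (edgeR, adjusted p = 0.0123) and overlaps DNAJC9 on the same strand, which rose by 0.66 (edgeR, adjusted p = 0.00899). The MRPS16 call was lost without each control library, with an adjusted p of up to 0.0587. How the counts divided shared reads is not given in the sources used here.

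MRPS11 was the only member called lower. MRPS11 makes a protein of the platform of the small subunit. It was at 25.9, 29.4 and 28.9 CPM in TTC3 shRNA libraries, against 34.3, 34.1 and 35.4 CPM in control shRNA libraries. All TTC3 shRNA libraries were below all controls, and the log2 fold change was −0.30 ± 0.07 (edgeR, adjusted p = 0.0182). The call was lost without each control, with an adjusted p of up to 0.0868.

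MRPS11 (chr15:88467453-88480773, plus strand) starts 33 bases from the start of MRPL46 (chr15:88459476-88467419, minus strand), so both genes point away from a shared intergenic stretch. MRPL46 was at 10.0, 14.2 and 12.9 CPM in TTC3 shRNA libraries, against 10.5, 12.1 and 10.6 CPM in control shRNA libraries, with overlapping groups and a log2 fold change of 0.16 ± 0.14 (adjusted p = 0.423; without TTC3 shRNA replicate 1, 0.0178). Genes around the pair were mostly lower: of 39 protein-coding genes with at least 5 CPM within 5 Mb of MRPS11, 26 were lower and 0 higher, with a median log2 fold change of −0.55. Over chromosome 15 60.3% of such genes were lower, and the median was −0.42. The part of this region in the MRPS11 change was not tested.

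Chromosome 2 moved the other way. Of its 711 protein-coding genes with at least 5 CPM, 53.9% were higher, with a median log2 fold change of 0.33. It carries 8 members, 7 of them higher (MRPL53, MRPL44, MRPS5, MRPS9, MRPL33, MRPL30 and MRPL19), with a median of 0.62; the exception, MRPL35, was at −0.04. Away from chromosomes 2 and 15, 26 of 42 MRPL genes and 10 of 26 MRPS genes were higher and 0 lower, and the medians were 0.41 and 0.28. Over all chromosomes 25.5% of the expressed protein-coding genes were higher and 17.9% lower. The share away from these 2 chromosomes was not counted. Whether the chromosomes differ between the cells of the groups was not tested.

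The 3 paralogues of the bacterial S18 protein differed in their values. MRPS18B rose by 0.45 ± 0.07 (edgeR, adjusted p = 0.00456). MRPS18A, the paralogue of the large subunit, was at 0.14 ± 0.08 with overlapping groups (adjusted p = 0.235), at −0.21 with the length trend removed, and called higher without TTC3 shRNA replicate 1 (adjusted p = 0.0318). MRPS18C was at 7.72, 7.63 and 6.34 CPM in TTC3 shRNA libraries, against 8.87, 8.47 and 8.23 CPM in control shRNA libraries, below all controls but not past the threshold (−0.24 ± 0.11, adjusted p = 0.136). The differences between paralogues were not tested.

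MRPS36 was at 11.8, 7.98 and 8.32 CPM in TTC3 shRNA libraries, against 12.5, 12.8 and 12.1 CPM in control shRNA libraries. All TTC3 shRNA libraries were below the controls, replicate 1 narrowly, and the log2 fold change of −0.41 ± 0.16 did not pass (adjusted p = 0.0793). It passed without TTC3 shRNA replicate 1 (adjusted p = 0.000208) and in DESeq2 (adjusted p = 0.042).

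For mitochondria-specific proteins of the small subunit the count depended on 1 library and on the test. Of the 9 such genes 0 passed in edgeR and 6 were higher at an unadjusted p below 0.05, with a median log2 fold change of 0.18. Without TTC3 shRNA replicate 1, 7 were called higher, in DESeq2 6 and in limma-voom 0. Without that library 6674 of all genes were called higher, against 3827 with all libraries. Shares over all genes for the unadjusted p, DESeq2 and limma-voom are not given here. All TTC3 shRNA libraries lay above all controls for 5 of the 9, against 34.1% of the expressed protein-coding genes. They included MRPS27, a pentatricopeptide repeat protein (0.18 ± 0.06, adjusted p = 0.0544), MRPS35 (0.17 ± 0.06, adjusted p = 0.0586) and MRPS25 (0.17 ± 0.07, adjusted p = 0.0849), 3 of the most abundant members that did not pass. Without TTC3 shRNA replicate 1 these 3 passed, with adjusted p-values of 0.00320, 0.00466 and 0.0135. MRPS22, mutated in a mitochondrial disease of infancy, was at 27.4, 23.7 and 23.7 CPM in TTC3 shRNA libraries, against 25.5, 23.8 and 25.4 CPM in control shRNA libraries, with overlapping groups and a log2 fold change of 0.00 ± 0.08.

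Of the 17 genes for bacterial-type proteins of the small subunit 11 were higher and 1 was lower, with a median of 0.45. In the large subunit, 20 of 31 bacterial-type genes and 12 of 20 mitochondria-specific genes were higher, with medians of 0.43 and 0.45. The difference between classes was not tested, since the members are no replicates of a condition.

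**Figure D4:**
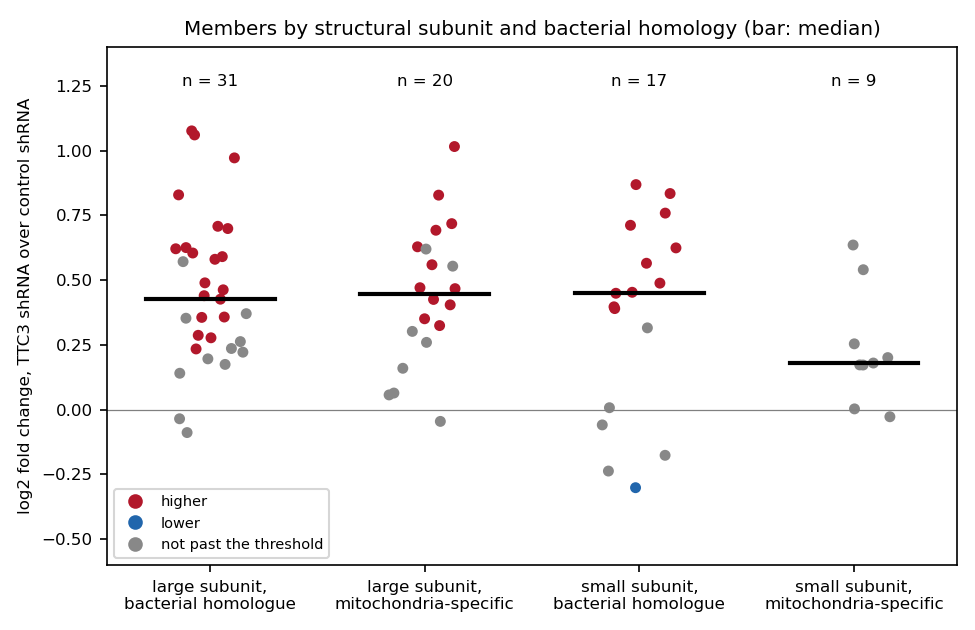
Log2 fold change of the members (y axis) by structural subunit and by whether the protein has a bacterial homologue (x axis), with bars at the medians of 0.43, 0.45, 0.45 and 0.18. Of the 9 mitochondria-specific small subunit genes 0 passed the threshold in edgeR with all libraries, against 7 without TTC3 shRNA replicate 1 and 6 in DESeq2. Over all genes, 6674 were called higher without that replicate, against 3827 with all libraries.

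Per transcript length, MRPS16 and MRPL12 were the most abundant members in controls. Levels were counts per kilobase of the longest annotated transcript, scaled to the same total over all genes of a library. In these units MRPS16 was at 211 in TTC3 shRNA and 192 in control shRNA libraries, MRPL12 at 257 and 158, MRPL3 at 105 and 99.5, and MRPS35 at 87.3 and 94.8. The scale has its own total in each library, so changes are read from CPM. The median member was at 35.7 in TTC3 shRNA and 31.5 in control shRNA libraries, and the lowest, MRPL46, at 3.24 and 3.62. With lengths weighted by the estimated transcripts, MRPS16 and MRPL12 stayed the highest and MRPL4 came next.

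Transcript estimates were less certain than gene counts. Of 197 tested member transcripts 4 of MRPL and 2 of MRPS genes were higher and 0 lower by edgeR, against 1.39% and 2.6% of 53805 transcripts. The leading transcript was the same in both groups for 76 of 78 genes, and its mean share of the gene's count differed by at most 5 percentage points for 67. In 45 genes it held at least 90% in controls, and where it held the whole count no move was possible. Means also hide spread between libraries. For MRPL22 the share was 4.84, 69.9 and 60.2% in TTC3 shRNA libraries, against 66.3, 46.7 and 34.6% in control shRNA libraries. The largest differences in mean share were MRPL42, whose leading transcript held 34.0, 36.4 and 60.1% in TTC3 shRNA libraries, against 45.4, 56.7 and 61.3% in control shRNA libraries, MRPS27, with 12.1, 10.9 and 7.34% against 1.33, 34.4 and 24.3%, and MRPS25, with 57.5, 72.5 and 73.7% against 61.2, 58.5 and 59.9%. The MRPS27 transcripts analysed here held, on average, only 22.6% of the gene's count in TTC3 shRNA and 39.8% in control shRNA libraries. In MRPL42 and MRPS27 the groups overlapped, and in MRPS25 replicate 1 lay below the controls and replicates 2 and 3 above them.

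Near-copies of some members could take reads. MRPS31P5 held 28.8% of the count of MRPS31, MRPL45P2 24.3% of that of MRPL45 and MRPL35P3 7.88% of that of MRPL35, so the values of these parents are uncertain. In all, 31 members share exon sequence with another protein-coding gene of at least 100 counts.

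The 5 mitochondrial ribosomal proteins with other symbols showed a like range. AURKAIP1 averaged 189 ± 76.7 CPM in TTC3 shRNA and 85.7 ± 1.8 CPM in control shRNA libraries (log2 fold change 1.14, adjusted p = 0.0186). GADD45GIP1 stood at 1.06 (adjusted p = 0.0367) and DAP3, a GTP-binding small subunit protein, at 0.20 (adjusted p = 0.0289). PTCD3 (0.18) and CHCHD1 (0.29) did not pass, but did without TTC3 shRNA replicate 1 (adjusted p = 0.00274 and 0.000180). Taking out the length trend left DAP3 at 0.02 (adjusted p = 0.804), library totals left it at 0.07 (adjusted p = 0.373), and its call was also lost with the replicate block (adjusted p = 0.0790). The 3 calls were lost without each library other than TTC3 shRNA replicate 1, with adjusted p-values of up to 0.0743, 0.113 and 0.129.

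The rest of the mitochondrial translation machinery held calls in both directions. Of 66 genes 26 were higher (39.4%) and 2 lower (3.03%), with a median log2 fold change of 0.22. Of all tested genes 15.7% were higher and 17.8% lower, and of the expressed protein-coding genes 25.5% and 17.9%. The shares higher in the lists of assembly, tRNA charging and translation factors were 45.2, 33.3 and 35.7%. Without TTC3 shRNA replicate 1, 43 were higher and 9 lower, and without any other library 15 to 22 were higher. Of the 66 genes 5 lie on chromosome 2, where 53.9% of expressed protein-coding genes were higher, and 2 on chromosome 15. Among the 59 elsewhere 23 were higher and 1 lower. The part of these chromosomes in single changes was not tested. Among 31 genes of ribosome assembly and rRNA modification, 14 were higher and 1 lower: RPUSD4, a pseudouridine synthase (0.71, adjusted p = 0.00218), and TRMT61B, an rRNA and tRNA methyltransferase (0.49, adjusted p = 0.00207), rose, and NGRN, needed for the large rRNA, fell by 0.79 (adjusted p = 0.000314) and lies on chromosome 15. Of 21 tRNA-charging genes 7 were higher and 0 lower, led by MARS2 (0.82, adjusted p = 0.00106) and GATB (0.66, adjusted p = 0.00142). Of 14 translation factors 5 were higher, with MTIF2 (0.48, adjusted p = 0.00133) and TACO1 (0.59, adjusted p = 0.00547) the leaders, and GFM2, which splits ribosomes after termination, was lower (−0.43, adjusted p = 0.0131). The GFM2 call was lost without TTC3 shRNA replicate 2 and without control replicates 1 or 3 (adjusted p of up to 0.0612), and the calls of the other 7 genes named here held with each library left out.

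Among regulators of genes for mitochondrial proteins, calls went in 1 direction, with 45.45% higher, against 25.5% of the expressed protein-coding genes. Of 11 tested, 5 were higher and 0 lower: TFB2M (0.41, adjusted p = 0.0118), YY1 (0.26, adjusted p = 0.0171), ESRRA (0.70, adjusted p = 0.0205), PPRC1 (0.27, adjusted p = 0.0264) and NRF1 (0.22, adjusted p = 0.0310). GABPA, an ETS factor, was at 0.17 (adjusted p = 0.0718). The calls of TFB2M, YY1, ESRRA and PPRC1 were each lost without control replicates 2 or 3, with adjusted p-values of up to 0.119. Whether the NRF1 call held in such fits was not examined.

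The RNAs encoded in mitochondria showed another pattern. Of 13 mitochondrially encoded mRNAs 2 were higher (MT-ATP8 and MT-ND1) and 0 lower, with a median log2 fold change of −0.10. The share higher, 15.4%, was near the 15.7% of all tested genes. All mitochondrial transcripts held 6.29, 3.73 and 3.54% of counts in TTC3 shRNA libraries, against 5.53, 5.29 and 5.52% in control shRNA libraries. The rRNAs had been depleted. What was left of the large rRNA, MT-RNR2, was at 6.47, 5.84 and 6.69 CPM in TTC3 shRNA libraries, against 3.84, 3.83 and 3.64 CPM in control shRNA libraries, and of the small rRNA, MT-RNR1, at 0.922, 1.67 and 2.33 against 1.02, 0.836 and 0.690 CPM. MT-RNR2 was higher (0.75 ± 0.11, edgeR, adjusted p = 0.00240) and MT-RNR1 did not pass (0.95 ± 0.34, adjusted p = 0.0693). A change in rRNA and a change in the depth of depletion cannot be told apart. The MT-ATP8 and MT-ND1 calls were lost without each control, with an adjusted p of up to 0.0594 and 0.0710.

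Other large gene groups held calls too. Of 77 cytosolic ribosomal protein genes 68 were higher (88.3%) and 0 lower, with a median log2 fold change of 0.57. Of 71 tested nuclear-encoded respiratory chain genes 51 were higher (71.8%) and 2 lower (2.82%), with a median of 0.55. Of the expressed protein-coding genes 25.5% were higher and 17.9% lower. No test sets the members apart from these lists.

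**Figure D5:**
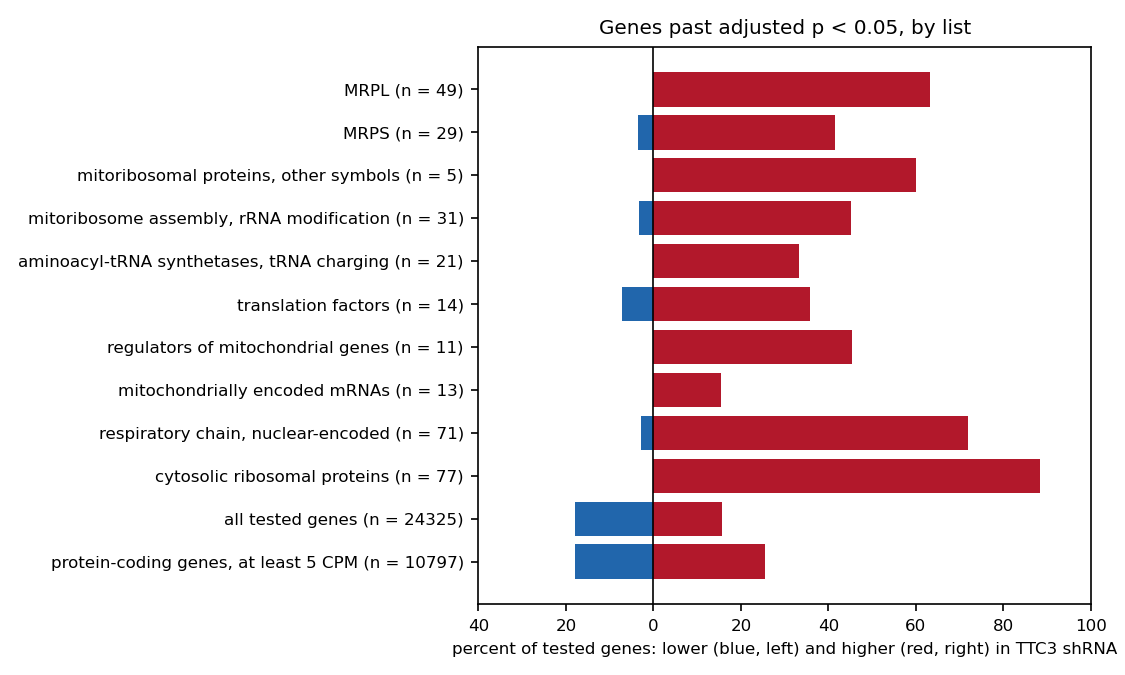
Percent of the tested genes of each list past an adjusted p of 0.05, higher in TTC3 shRNA libraries (red, right) or lower (blue, left), with the number tested beside each name. MRPL genes are at 63.3% higher and MRPS genes at 41.4%, against 15.7% of all tested genes and 88.3% of cytosolic ribosomal protein genes.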

How the data were processed

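RNA-seq of PC3 cells was analysed, 3 TTC3 shRNA and 3 control shRNA libraries assigned by title. Per the labels' protocols, total RNA was depleted of rRNA and made into directional libraries. Tools named in the submitters' processing notes are STAR, StringTie and Trim Galore, with the hg38 build. Their versions, the annotation release and the strand setting of counting were not stated in what was read. The authors deposited whole-number estimated counts per gene and per transcript, not scaled for depth, and no rounding was needed.

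From these, edgeR 4.0.16 in R 4.3.3 fitted a quasi-likelihood model over all genes passing filterByExpr (minimum count 10, total 15), with TMM scaling, no block, and Benjamini-Hochberg adjusted p below 0.05. Every adjusted p not credited otherwise is from this fit. CPM use TMM-scaled totals, per-library changes a prior count of 2, and the SE is the fold change over the square root of F. At 143246356 to 155526861 counts per library, the spread between libraries limits precision. Gene types, lengths, positions and exons came from GENCODE 29 (GRCh38). Length and GC trends were removed by lowess (span 0.5).

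By rule, the text names TTC3, members that fell, the 8 largest rises, 2 highest levels and 3 most abundant members not past the threshold of each subunit, those beside the threshold, members of stated role and leading genes of each list; members of stalk, tunnel and protuberance, those of extreme library range, overlapping genes and MRPL46, MRPL23, MRPL30, MRPL13, MRPS34, MRPL41, MRPS22, MRPS36 and MRPL42 were chosen after values were seen. NRF1 and GABPA were named outside the rule. Members and lists were chosen with earlier results of these data known. Alternatives were DESeq2 1.42.0, limma-voom (limma 3.58.1), other scalings and filters, trends removed, a replicate block, each library left out and an adjusted p of 0.01; those with GC, and without chromosomes 2 and 15, were added after seeing the data. On simulated counts, the script was tested on known changes. Some markers of the cell line are not reported here.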

Additional observations from a re-analysis of the deposited data

How the results depend on the processing

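Relative to the median of all genes, which scaling by library totals moved to −0.15 and trend removal to −0.16 to −0.17, the MRPL median stayed between 0.37 and 0.56 and the MRPS median between 0.27 and 0.43 over 18 alternatives. In the main fit the median of expressed protein-coding genes was 0.06, nearer to the members than the −0.02 of all genes. Distances from it were not followed over the alternatives. With library totals 1 MRPL gene was lower, the MRPS median was 0.19, and 17 other mitochondrial translation genes were higher and 4 lower. Over all genes 2518 were then called higher, against 3827 in the main fit. In DESeq2, 19 MRPS genes were higher and 2 lower. Counts over all genes are not given here for DESeq2 or for the fits with trends removed. With the length trend removed, 2 MRPL and 4 other translation genes were lower, the medians were 0.22 (MRPL) and 0.18 (MRPS), and they differed by −0.048. With the length trend removed and the replicate block, 15 MRPL genes were higher and 2 lower, 7 MRPS genes higher and 4 lower, 5 other translation genes lower, and the medians of 0.22 and 0.18 differed by −0.039. With length and GC trends removed, 3 MRPL, 4 MRPS and 6 other translation genes were lower, the MRPL median was 0.21, and the difference was −0.00377. At an adjusted p of 0.01, 15 MRPL genes were higher and 0 lower, and 8 MRPS genes were higher and 0 lower. Of the other translation genes 14 were then higher and 1 lower, and over all genes 1688 were higher and 2394 lower. Without chromosomes 2 and 15, 0 MRPS and 1 other translation gene were lower.

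Leaving out 1 library gave 13 to 45 MRPL genes higher and 0 to 1 lower, 8 to 21 MRPS genes higher and 0 to 3 lower, 15 to 43 other translation genes higher and 1 to 9 lower, and a difference in medians of −0.16 to −0.037. Over all genes, 1835 to 6674 were then called higher and 2711 to 7065 lower. The sign of MRPL17 turned without TTC3 shRNA replicate 1 (0.00298; −0.13 to 0.00298 over the 6 libraries). With the length trend removed, with it and the block, and with length and GC removed, they turned for MRPS18A (−0.21, −0.21, −0.32), MRPL58 (−0.040, −0.043, −0.076), MT-ATP8 (−0.28, −0.32, −0.18) and MRPL18 (−0.11, −0.11, −0.10), and in the first and second of these for MRPS35 (−0.034, −0.036) and CHCHD1 (−0.043, −0.042). The cause was not tested. Deviations of same-numbered libraries correlated at 0.14, 0.12 and 0.03. TTC3 shRNA replicates 1 and 2 correlated best with the control of their own number, and replicate 3 with control replicate 2 (0.06). These weak correlations do not settle whether replicate numbers pair the libraries. The replicate block gave 31 MRPL and 12 MRPS genes higher. Transcript calls are limited by uncertain estimates, and single genes at small fold changes by 3 libraries a group.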
